A study of Mus musculus with 23 samples.

Results

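DNA replication and licensing genes encode the machinery that copies the genome during S phase. They were taken as a list of 43 named genes, which are 43 of the 47643 gene identifiers in the tables of normalised read counts, and each symbol matched 1 identifier. Before S phase the origin recognition complex, with Cdc6 and Cdt1, loads the ring of MCM proteins onto DNA, which is called licensing, and geminin (Gmnn) binds Cdt1 and blocks a second loading. At the start of S phase cyclin E and E2F activity rise, Cdc45 and the GINS complex join the MCM ring to form the active helicase, and the primase, polymerases, sliding clamp and clamp loader follow it. Cells that do not divide keep most of these genes low, so in a tumor their mRNA is used as a readout of proliferation.

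The genes were followed in 23 mammary tumors of female PyMT mice on a C57BL/6 background, in which the MMTV promoter drives the polyoma middle T oncogene in mammary epithelium. In the first experiment, mice with intact IL-38, a cytokine of the IL-1 family that dampens inflammation, received 100 µg of the neutralising antibody anti-IL-38 (clone e04, n = 6) or human IgG1 isotype control (n = 5) weekly for 5 weeks, once the first tumor measured 0.6 cm. The age of these mice is not given in the sources used here. In the second experiment, treatment began at 13 weeks of age and lasted 5 weeks, with a first dose of 500 µg and later doses of 200 µg. WT mice (n = 4) and IL-38 KO mice (n = 4), from a C57BL/6N knockout strain crossed with the PyMT strain, received polyclonal Armenian hamster IgG. Further IL-38 KO mice (n = 4) received anti-γδTCR, which the paper describes as blocking the receptor of γδ T cells rather than depleting the cells. The paper nevertheless reports fewer γδ T cells in tumors under this antibody, with levels in spleen and blood largely unchanged. WT mice with anti-γδTCR were not analysed here, so the effect of the blockade was measured in IL-38 KO mice alone. The study asked how interfering with IL-38, and with γδ T cells in its absence, acts on the tumor, and the replication genes are compared here for the direction in which they differed in each of these comparisons.

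RNA came from whole dissociated tumors, so fewer dividing cells and less of these mRNAs per cell cannot be told apart. Libraries held 6273049 to 15879164 reads on genes. A group of 5 libraries, IL-38 KO + IgG replicate 4 and all 4 of IL-38 KO + anti-γδTCR, stood apart from the other 18, with 1.31 to 1.98% of reads on processed pseudogenes against 0.0943 to 0.191%, 11.3 to 20.1% of reads on Gm42418, which overlaps a ribosomal RNA repeat, against 2.62 to 5.70%, and 6273049 to 8794202 reads against 10138353 to 15879164. This mark and the γδ TCR blockade overlap in all but 1 library, and results of that comparison are therefore given with and without IL-38 KO + IgG replicate 4. The gene of IL-38, Il1f10, had 0 reads in all 23 libraries, WT included, which allows up to 0.189 to 0.478 CPM, so the knockout could not be checked from these data. Markers of luminal epithelium had reads in every group, with summed normalised counts of 20907 to 60846 per library, as the tissue label requires. All 43 replication genes had reads in every library, from 7 reads upwards in the case of Orc1, and all 43 passed the filter of a mean normalised count of at least 5 in every comparison.

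Promoter windows were available from RefSeq (GRCm38.p6, 250 bases before to 50 bases after the start) for 34 of the 43 genes. Those of 5 members are printed, each among the 4 members with the smallest unadjusted p (limma) in its comparison. They are Mcm5 and Cdt1 for the neutralising antibody, Orc1 for the knockout, and Pcna and Mcm10 for the γδ TCR blockade. Other members, such as Fen1, which is also among the 4 in the knockout and the blockade, are not printed. Capitals mark the letters searched as E2F motifs (TTTCCCGC, TTTCGCGC, TTTGCCGC, TTTGGCGC) and as CCAAT box (CCAAT), each on either strand, so that a match on the other strand appears as its reverse complement.
Mcm5, chr8:75109259-75109558, plus strand: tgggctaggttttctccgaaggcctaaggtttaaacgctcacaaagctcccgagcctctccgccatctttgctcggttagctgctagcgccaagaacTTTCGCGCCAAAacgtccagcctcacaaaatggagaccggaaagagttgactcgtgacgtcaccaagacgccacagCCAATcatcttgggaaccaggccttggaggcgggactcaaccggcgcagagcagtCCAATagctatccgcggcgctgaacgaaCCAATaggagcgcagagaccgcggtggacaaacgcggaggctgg
Cdt1, chr8:122567765-122568064, plus strand: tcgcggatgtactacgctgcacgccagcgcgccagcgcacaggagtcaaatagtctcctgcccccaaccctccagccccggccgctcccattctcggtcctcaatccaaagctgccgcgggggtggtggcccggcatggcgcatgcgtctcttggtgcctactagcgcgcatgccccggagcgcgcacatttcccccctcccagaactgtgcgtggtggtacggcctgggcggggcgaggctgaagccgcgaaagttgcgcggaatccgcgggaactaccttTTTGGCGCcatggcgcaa
Orc1, chr4:108579204-108579503, plus strand: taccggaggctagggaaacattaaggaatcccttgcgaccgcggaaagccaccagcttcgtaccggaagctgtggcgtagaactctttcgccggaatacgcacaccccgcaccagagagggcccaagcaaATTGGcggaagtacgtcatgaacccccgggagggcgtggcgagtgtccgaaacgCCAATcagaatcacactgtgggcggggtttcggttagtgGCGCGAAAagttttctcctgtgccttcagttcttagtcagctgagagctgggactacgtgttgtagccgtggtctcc
Pcna, chr2:132253131-132253430, minus strand: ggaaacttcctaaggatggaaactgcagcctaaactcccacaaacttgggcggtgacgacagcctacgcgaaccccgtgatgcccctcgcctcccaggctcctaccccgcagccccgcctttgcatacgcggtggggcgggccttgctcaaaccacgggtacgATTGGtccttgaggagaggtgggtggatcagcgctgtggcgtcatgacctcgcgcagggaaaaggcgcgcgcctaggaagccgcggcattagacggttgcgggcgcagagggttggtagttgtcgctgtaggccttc
Mcm10, chr2:5012742-5013041, minus strand: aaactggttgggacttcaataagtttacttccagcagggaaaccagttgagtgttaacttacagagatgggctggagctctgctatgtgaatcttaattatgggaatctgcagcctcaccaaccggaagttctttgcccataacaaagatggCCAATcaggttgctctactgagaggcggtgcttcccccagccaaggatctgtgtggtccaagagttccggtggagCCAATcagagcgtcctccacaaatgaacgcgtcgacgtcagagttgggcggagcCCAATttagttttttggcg
In the Mcm5 window TTTCGCGC begins 153 bases before the start and TTTGGCGC, on the other strand, overlaps it from 149 bases before the start. The Orc1 window holds TTTCGCGC on the other strand from 27 bases before the start, and the Cdt1 window holds TTTGGCGC 32 bases after it. The windows of Pcna and Mcm10 hold none of these 4 words, and hold 1 and 3 CCAAT boxes.

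E2F transcription factors are the known activators of S phase genes, and at least 1 E2F word lay in a window of 15 of the 34 matched members, or 44.1%, against 2.60% of all 27025 genes with a window. The 15 were Mcm3, Mcm5, Mcm6, Mcm7, Orc1, Cdc6, Cdt1, Gins3, Rfc3, Pola1, Pold1, Lig1, Hells, Uhrf1 and Dnmt1, so they came from 7 of the 9 roles below. CCAAT lay in windows of 21 of the 34 members, or 61.8%, against 41.1% of genes. The letters TTTGAA, the cell cycle homology region that marks many genes of mitosis, lay in those of 5 members, or 14.7%, against 20.2%. A match is a description of the letters and not a bound site.

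**Figure D1:**
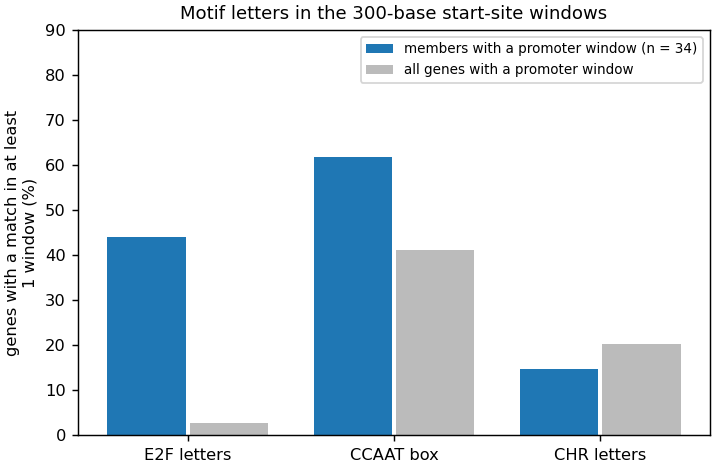
Share of genes (%) with at least 1 match to the E2F words, CCAAT or TTTGAA (CHR letters) in a 300-base window around a start site, for the 34 members with a window (blue) and for all 27025 genes with a window (grey). The E2F words lay in 44.1% of members and 2.60% of genes, whereas the TTTGAA share was lower among members than among genes.

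In the average over the 43 genes, the isotype control tumors and the IL-38 KO + IgG tumors were the highest in the table of 19 libraries, which holds all groups but the γδ TCR blockade. The mean over members of log2(normalised count + 1) was 8.34 ± 0.31 (SD, n = 5) in isotype control, 8.02 ± 0.13 (n = 6) in anti-IL-38, 8.06 ± 0.07 (n = 4) in WT + IgG and 8.18 ± 0.17 (n = 4) in IL-38 KO + IgG. The libraries of neighbouring groups in this order overlapped in each case. The isotype control mean rests in part on replicate 5, which stood at 8.86 while the other 4 isotype control tumors lay between 8.10 and 8.32, and in which 42 of 43 members exceeded their median over the 19 libraries. In the table of 8 libraries, whose scale is its own, IL-38 KO + IgG stood at 7.80 ± 0.19 (n = 4) and IL-38 KO + anti-γδTCR at 7.27 ± 0.26 (n = 4).

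**Figure D2:**
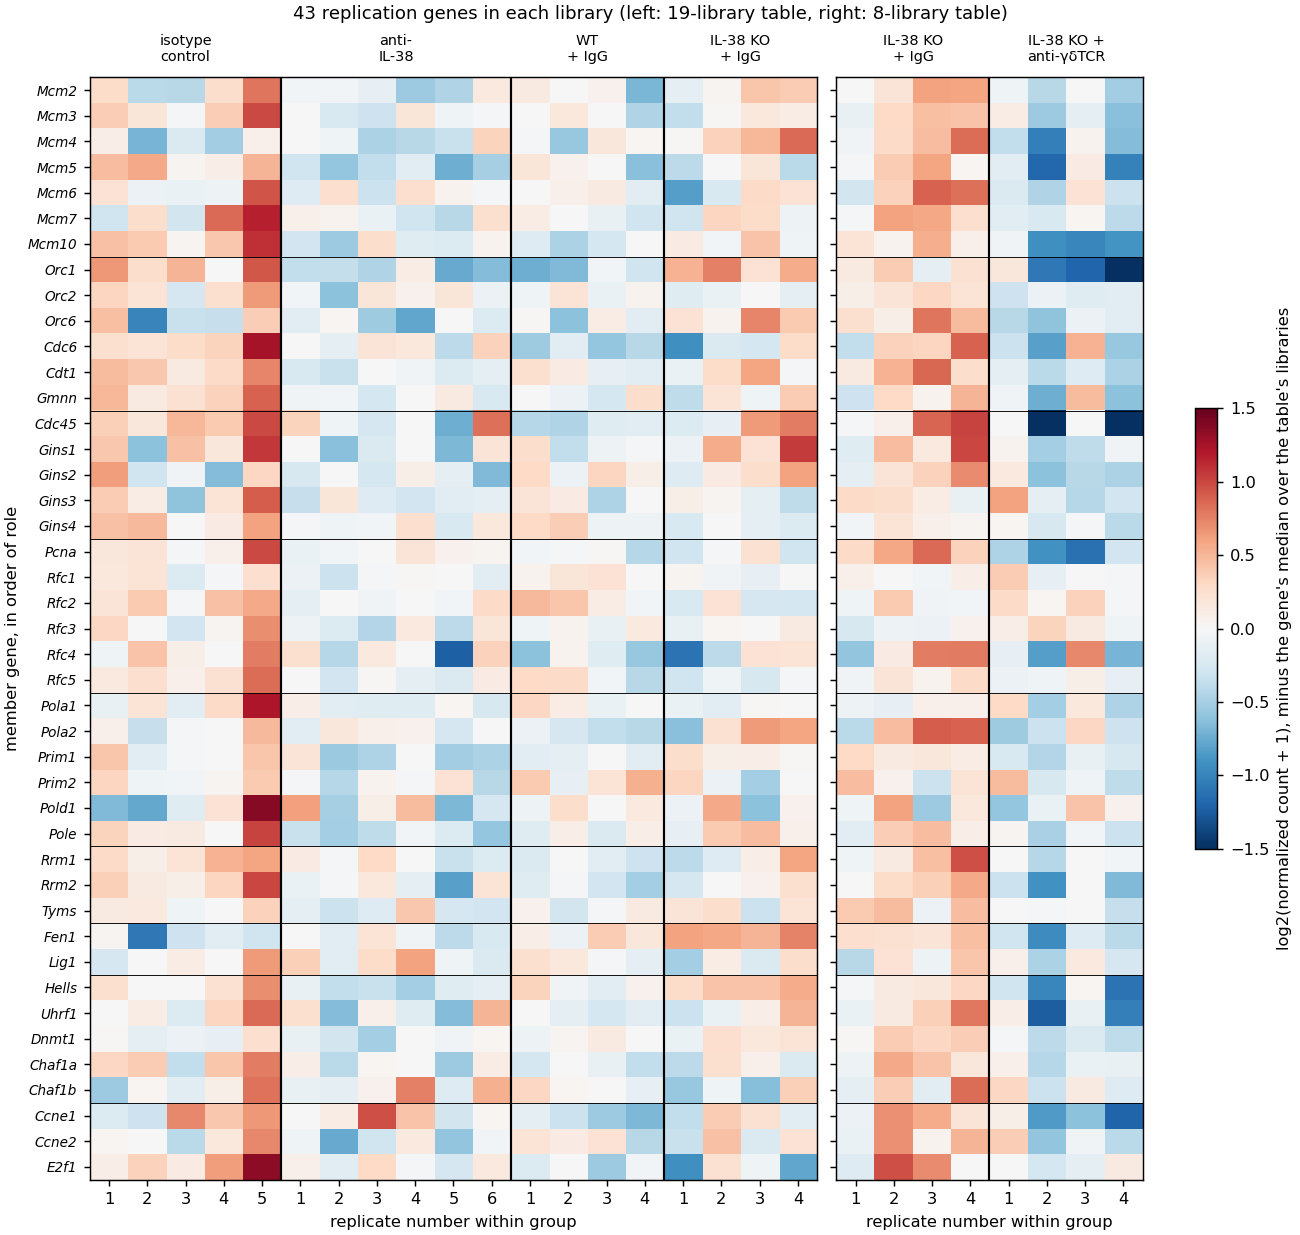
Heat map of log2(normalised count + 1) of each of the 43 genes (rows, in order of role) minus the gene's median over the libraries of its table, by replicate (columns) and group, with the 19-library table on the left and the 8-library table on the right. Isotype control replicate 5 is red in 42 of 43 rows, and IL-38 KO + anti-γδTCR replicates 2 and 4 are blue in nearly all rows.

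**Figure D3:**
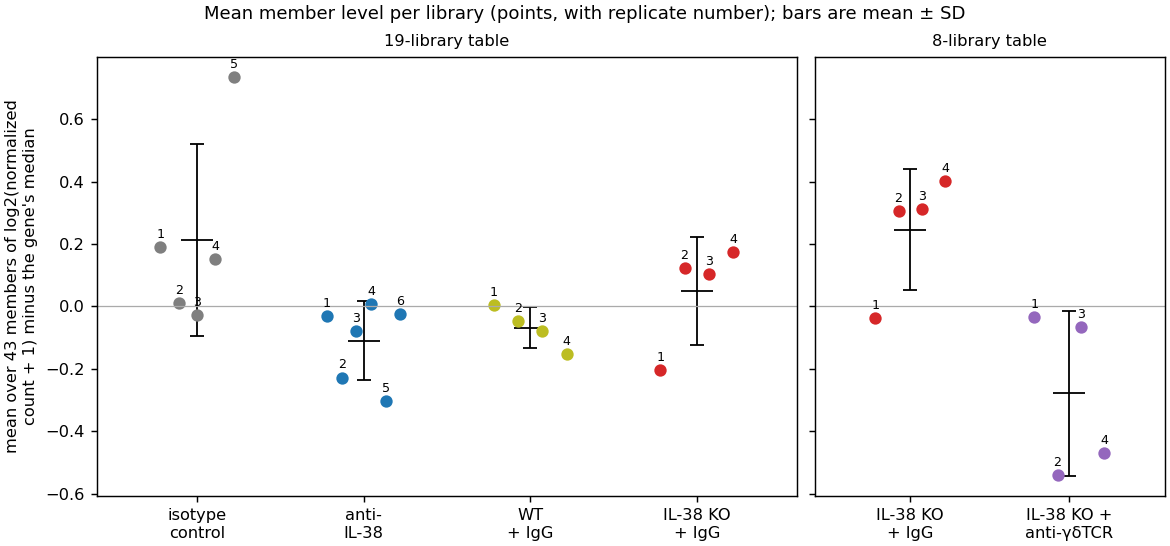
Mean over the 43 genes of log2(normalised count + 1) minus the gene's median, for each library (points, with the replicate number) by group, with bars for the group mean ± SD. Isotype control replicate 5 lies above all other libraries, the other isotype control libraries overlap with anti-IL-38, and the 4 anti-γδTCR libraries split into replicates 1 and 3, near 0, and replicates 2 and 4, well below it.

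In tumors treated with anti-IL-38, 39 of the 43 replication genes had a lower mean than in isotype control and 4 a higher mean, against 49.8% of all 16002 genes tested that were lower. The median log2 fold change of the members was -0.36, with a range from -0.88 for Orc1 to 0.26 for Fen1, while the median over all genes was 0.00188. No member passed the test at an adjusted p of 0.05, nor did any other gene (0 of 16002, 0%, limma with Benjamini-Hochberg adjustment; 1682 genes had an unadjusted p under 0.05). At an unadjusted p under 0.05, 15 members were lower and 0 higher, which is 15 of 43 against 4.91% of all genes lower at that level. DESeq2 on the recovered reads called 75 genes, among them 16 lower genes (0.1% of those tested), of which 2 were members, Mcm5 (adjusted p = 0.00129) and Cdt1 (adjusted p = 0.0233), whereas edgeR called 0 genes, with 1714 at an unadjusted p under 0.05. Over all alternatives the adjusted p ran from 0.00129 to 0.578 for Mcm5 and from 0.0233 to 0.582 for Cdt1.

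Mcm5, a subunit of the MCM ring, showed the clearest difference. Its normalised counts in isotype control replicates 1 to 5 were 974, 1053, 731, 760.2 and 1008, and in the 6 anti-IL-38 tumors they ran from 426 to 635 with a median of 524. Every treated tumor lay below every control, with means of 526 ± 74.7 (SD, n = 6) and 905 ± 149 (n = 5). The log2 fold change of Mcm5 was -0.78 ± 0.14 (SE), with an unadjusted p of 7.93e-05 and an adjusted p of 0.304 by limma, and an exact permutation p of 0.00216, the smallest that 462 groupings allow.

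Cdt1, the licensing factor that delivers the MCM ring to origins, read 513, 488, 403, 447 and 612 in the isotype control tumors, and 292 to 367 with a median of 325 in anti-IL-38 tumors. Here too the groups did not overlap, and the log2 fold change was -0.57 ± 0.13 (SE, adjusted p = 0.326, limma; exact permutation p = 0.00216). Hells, a chromatin remodeller of S phase that supports DNA methylation, read 450.4, 379.7, 379, 445 and 616 in controls and 267 to 352 (median 318) after treatment. Pole, the catalytic subunit of the leading strand polymerase, read 158, 137, 137, 125 and 254 in controls and 83.6 to 121 (median 97.5) after treatment. Neither pair of groups overlapped for Hells (log2 fold change -0.50 ± 0.15, SE; adjusted p = 0.408, limma) or for Pole (-0.66 ± 0.20; adjusted p = 0.412, limma). With Gmnn, 5 members had all treated tumors below all controls, against 0.644% of all genes. Mcm5, Cdt1, Hells and Pole were picked for their small p, so their exact p-values, given unadjusted, are descriptive.

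Among the members that stand for their roles, the replicative helicase subunit Mcm2 read 557, 348, 345, 551 and 801 in isotype control and 313 to 508 (median 434) in anti-IL-38. Its groups overlapped widely (log2 fold change -0.28 ± 0.22, SE). The licensing ATPase Cdc6 read 161, 156, 165, 171 and 323 in controls and 103 to 172 (median 143) after treatment, so that 5 of the 6 treated tumors lay below all controls while 4 of the 5 controls stayed within a narrow band. The sliding clamp Pcna, which tethers polymerases to DNA, read 602, 611, 527, 566 and 1066 in controls and 499.9 to 611 (median 542) after treatment, with only replicate 5 of the controls far from the treated range. Rrm2, the S phase subunit of ribonucleotide reductase, read 579, 497, 481, 566 and 908 in controls and 257 to 523 (median 434) after treatment. The log2 fold changes were -0.43 ± 0.21 for Cdc6, -0.26 ± 0.16 for Pcna and -0.50 ± 0.20 (SE) for Rrm2, all with an adjusted p above 0.05 by limma. Cyclin E1 (Ccne1), which drives entry into S phase, read 138, 128, 262, 210.1 and 249.7 in controls and 131 to 311 (median 167) after treatment, and hardly differed (-0.04 ± 0.25, SE).

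By role, the differences were spread over the machinery rather than held by a few genes. The MCM group (Mcm2, Mcm3, Mcm4, Mcm5, Mcm6, Mcm7 and the replication initiator Mcm10) had 6 of 7 members lower, with a median of -0.42, and origin recognition and licensing (Orc1, Orc2, Orc6, Cdc6, Cdt1, Gmnn) had 6 of 6 lower, with a median of -0.47. Cdc45 and the 4 GINS subunits (Gins1, Gins2, Gins3, Gins4) were lower in 5 of 5 (median -0.36), Pcna with the clamp loader subunits Rfc1, Rfc2, Rfc3, Rfc4 and Rfc5 in 6 of 6 (median -0.30), and the polymerase and primase genes Pola1, Pola2, Prim1, Prim2, Pold1 and Pole in 6 of 6 (median -0.31). The nucleotide supply genes Rrm1, Rrm2 and Tyms were lower in 3 of 3 (median -0.36), the S phase entry genes Ccne1, Ccne2 and E2f1 in 3 of 3 (median -0.37), and chromatin and methylation maintenance (Hells, Uhrf1, Dnmt1, Chaf1a, Chaf1b) in 4 of 5 (median -0.33). The flap nuclease Fen1 and the ligase Lig1, which join Okazaki fragments, were the role in which both members had a higher mean, by 0.26 and 0.03 on the log2 scale, and the remaining 2 members with a higher mean were Mcm4 (0.10) and Chaf1b (0.11).

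Isotype control replicate 5 carried part of this difference. Without it, 34 of the 43 members were lower, the median was -0.21, and 9 members had an unadjusted p under 0.05, all lower. Of all 16013 genes in that fit, 49.3% were higher, and 1317 were at that level, 775 of them higher. The change of Mcm5 was then -0.73 ± 0.15 and that of Cdt1 -0.49 ± 0.13 (SE), while Pcna shrank to -0.08 ± 0.11 and Cdc6 to -0.24 ± 0.17. This tumor was also high in genes of mitosis, with a summed normalised count of 25753 over 20 such genes against 13297 to 15068 in the other isotype control tumors.

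In IL-38 KO + IgG tumors the replication genes did not share a direction. Of the 43 members, 28 had a higher mean than in WT + IgG and 15 a lower mean, against 49.4% of all 16563 genes that were lower, and the median log2 fold change was 0.10, with a range from -0.38 for Rfc2 to 0.95 for Orc1. No member passed the test, while 1 gene of 16563 did (0.00604%, limma). At an unadjusted p under 0.05, 5 members were higher, against 6.73% of all genes, and 1 was lower, against 5.4%. DESeq2 called 304 genes and edgeR 0 genes (2219 at an unadjusted p under 0.05), with 0 members among them.

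The higher members included Orc1, the largest subunit of the origin recognition complex, whose counts were low throughout. It read 17.9, 18.8, 29.5 and 24.5 in WT + IgG replicates 1 to 4 and 44, 52.2, 35.5 and 45.1 in IL-38 KO + IgG. All KO tumors lay above all WT tumors, with a log2 fold change of 0.95 ± 0.29 (SE, adjusted p = 0.276, limma; exact permutation p = 0.0286, the smallest that 70 groupings allow). Orc1 was picked for its small p, so this exact p, given unadjusted, is descriptive. Fen1 read 400.4, 351, 486 and 419.8 in WT and 571, 558, 533 and 628 in KO tumors, again without overlap (0.47 ± 0.14, adjusted p = 0.270, limma).

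Hells read 478, 365, 339 and 398 in WT and 461, 511, 513 and 559.9 in KO tumors, so that the lowest KO tumor lay within the WT range (0.38 ± 0.15). Mcm4, another subunit of the ring, read 346, 237, 396 and 361 in WT and 355, 447, 498 and 633 in KO tumors (0.52 ± 0.21). With Prim1, the catalytic primase subunit, 3 members had all KO tumors above all WT tumors, against 3.66% of all genes, and 0 members had all KO tumors below, against 3.41%.

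The role representatives overlapped between genotypes. Mcm2 read 503, 459, 482 and 285 in WT and 414, 472, 613 and 599 in KO tumors, and Cdc6 read 93.6, 122, 90.4 and 101 against 71.1, 116, 113 and 164. Pcna read 521, 529.6, 542 and 398 in WT and 434, 528, 628 and 436 in KO tumors, which is the closest pair among the genes given here (0.02 ± 0.17). For Rrm2 the values were 400.4, 448, 371 and 317 against 379.8, 453, 472 and 536, and for Ccne1 they were 143, 127, 108 and 98.8 against 123, 207, 187 and 142. The log2 fold changes were 0.29 ± 0.21 for Mcm2, 0.14 ± 0.25 for Cdc6, 0.26 ± 0.16 for Rrm2 and 0.44 ± 0.22 (SE) for Ccne1, and that of Cdc6 turned to -0.05 without IL-38 KO + IgG replicate 4.

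The clamp and clamp loader were split, with 3 members lower and 3 higher and a median of -0.07. Rfc2 (-0.38 ± 0.17, SE; unadjusted p = 0.0475 by limma, not past the adjusted threshold) stood lowest, followed by Rfc5 (-0.19) and Rfc1 (-0.15), beside Rfc3 (0.01), Pcna (0.02) and Rfc4 (0.06). Licensing genes had a median of 0.15 (5 of 6 higher) and the MCM group one of 0.13 (5 of 7 higher). Without IL-38 KO + IgG replicate 4, the library that stood apart, 25 members were higher and 18 lower, against 48.8% of all genes higher, and the median was 0.04. Fen1 (0.43 ± 0.15) and Orc1 (0.93 ± 0.33) were the members with an unadjusted p under 0.05 (limma), both higher. Of all 16225 genes, 1395 were higher at that level, which is a larger share than 2 of 43.

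**Figure D4:**
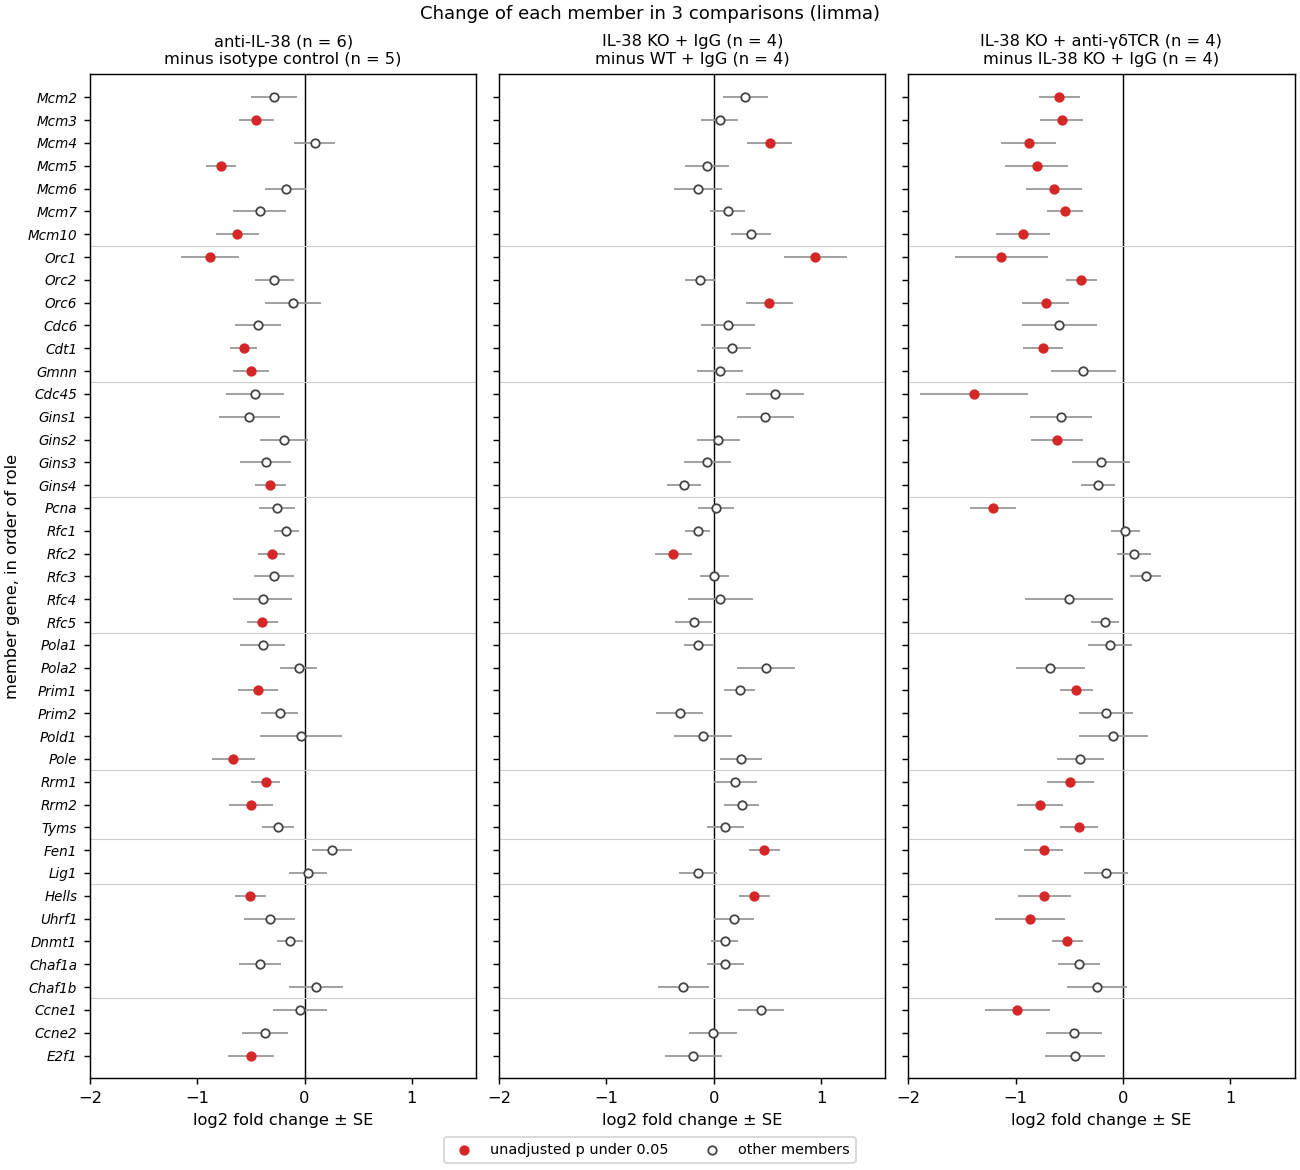
Log2 fold change ± SE (limma) of each of the 43 genes (rows, in order of role) in anti-IL-38 against isotype control, IL-38 KO + IgG against WT + IgG, and IL-38 KO + anti-γδTCR against IL-38 KO + IgG, with members at an unadjusted p under 0.05 in red. Most points lie left of 0 in the left and right panels (39 and 40 of 43) and on both sides of 0 in the middle panel (15 of 43 on the left).

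The antibody and the knockout are both meant to remove IL-38 activity, and their comparisons share no library, so their directions can be set side by side. A lower mean with the antibody and a higher mean in the knockout was found for 26 of the 43 members, against 21.5% of the 15648 genes tested in both, and a lower mean in both for 13 members, against 28.3% of genes. In the test of the difference itself (interaction term, 19 libraries), the antibody effect minus the knockout effect was negative for 38 of 43 members, against 47.7% of all 16352 genes, with a median of -0.45. No member passed the adjusted threshold, and 1 gene of 16352 did (0.00612%). At an unadjusted p under 0.05, 12 members were more negative with the antibody, against 3.43% of all genes. Without isotype control replicate 5 the difference was negative for 35 members, with a median of -0.34 and 9 members at that level, all negative. Of all 16381 genes in that fit, 50.9% were positive, and 1181 were at that level, 691 of them positive.

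Orc1 differed most between the 2 ways of inhibiting IL-38, both by size and by p. In isotype control it read 48.2, 36.8, 43.7, 30.4 and 59.1, and after anti-IL-38 17.6 to 33.0 with a median of 22.7, which is the reverse order of the WT and KO values given above. Its interaction was -1.83 on the log2 scale (unadjusted p = 8.76e-05, adjusted p = 0.362, limma). By p, Hells (-0.88), Mcm10 (-0.97) and Cdt1 (-0.73) came next, and by size Cdc45 (-1.03) and Gins1 (-0.99), all with adjusted p-values above 0.05 (limma). In isotype control Mcm10 read 221, 213, 167, 215 and 347, and after anti-IL-38 110.4 to 195 with a median of 142, while WT tumors read 141, 116, 135 and 162 and KO tumors 177, 158, 218 and 155. The anti-IL-38 tumors of Mcm10 thus lay around the WT + IgG range, and the isotype control tumors above it. The antibody experiment and the genotype experiment differ also in the control antibody, in dosing and in whether treatment began at a tumor size or at an age, so the way of inhibition and the experiment cannot be told apart.

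When the 10 tumors of mice given the antibody or labelled as lacking the gene were compared with the 9 controls, 38 members had a lower mean. This stood against 49.4% of 16352 genes, and the median of the members was -0.16. Without isotype control replicate 5, 32 were lower and the median was -0.074, while 49.4% of all 16381 genes were higher. No gene passed the test (0%, limma; 1725 genes had an unadjusted p under 0.05), and 5 members were lower at an unadjusted p under 0.05, against 4.13% of all genes. They were Mcm5 (-0.47), Rfc2 (-0.33), Gins4 (-0.29), Rfc5 (-0.30) and Rfc1 (-0.16), so 3 of the 5 are subunits of the clamp loader. This fit takes no account of the experiment, which splits both arms. With the experiment as a term, 1 gene was called and 2415 of 16352 genes, 1240 of them higher, had an unadjusted p under 0.05 (limma). The number of all genes at that level thus rose as well, from 1725. Among the 2415 were 8 of the 43 members. These were the same 5 with E2f1 (-0.37) and Pola1 (-0.29), all lower, and Fen1 (0.35), which was higher. In the separate comparisons Rfc2 stood at -0.31 with the antibody and -0.38 in the knockout, and Rfc5 at -0.39 and -0.19.

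In IL-38 KO mice, tumors with anti-γδTCR had a lower mean than those with IgG for 40 of the 43 replication genes, against 48.1% of all 16481 genes tested. The median log2 fold change was -0.52, with a range from -1.38 for Cdc45 to 0.21 for Rfc3, and the median over all genes was 0.0216. No gene passed the test with all 8 libraries (0%, limma; 3570 genes had an unadjusted p under 0.05). At an unadjusted p under 0.05, 23 members were lower and 0 higher, against 9% of all genes lower at that level. This comparison shares its 4 control libraries with the knockout comparison, so the 2 sets of values are not independent.

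Without IL-38 KO + IgG replicate 4, 18 members had an unadjusted p under 0.05 (limma), all lower. Of all 16480 genes, 4321 were then at that level, 2509 of them higher. In that fit 40 members were still lower, with a median of -0.46, while 51.1% of all genes were higher. Of the members, 4 passed the adjusted threshold, all lower, of 800 lower genes called (4.85% of those tested). These were Pcna (-1.26, adjusted p = 0.00355), Cdt1 (-0.80, adjusted p = 0.0211), Fen1 (-0.68, adjusted p = 0.0385) and Mcm10 (-0.98, adjusted p = 0.0390), all by limma. Over all alternatives the adjusted p ran from 1.92e-05 to 0.203 for Pcna, from 0.00305 to 0.203 for Cdt1, from 0.0103 to 0.203 for Fen1 and from 0.0154 to 0.214 for Mcm10. In that setting 2357 genes were called in all, 1557 of them higher, and the groups then differ in full in the mark of the libraries that stood apart, so the blockade and that mark cannot be told apart for this count. DESeq2 on all 8 libraries called 8 members, all lower (Pcna, Fen1, Cdt1, Dnmt1, Rrm2, Mcm10, Mcm4 and Orc6), against 3.79% of genes called lower, and edgeR called 0 genes, with 3078 at an unadjusted p under 0.05.

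Pcna was the member with the smallest p. It read 326, 399.9, 485 and 341 in IL-38 KO + IgG replicates 1 to 4 and 194, 142, 123 and 220.1 in IL-38 KO + anti-γδTCR. Every blockade tumor lay well below every control, with means of 169.6 ± 44.9 (SD, n = 4) and 388 ± 72.0 (n = 4). The log2 fold change was -1.21 ± 0.22 (SE), with an unadjusted p of 0.000223 and an adjusted p of 0.0657 by limma, and an exact permutation p of 0.0286, the smallest that 70 groupings allow. Any member whose groups do not overlap takes this exact p, which is given unadjusted and is descriptive. The processed copy of Pcna, Pcna-ps2, had 0 to 27 reads per library, against 68 to 1119 reads for Pcna, and whether reads were shared between them was not tested.

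Fen1 read 428, 423, 412 and 491 in controls and 293, 187, 315 and 273 with the blockade, and Cdt1 read 258, 338, 426 and 283 against 215, 177, 206 and 169. Mcm10 read 133, 119, 169 and 121 in controls and 111, 60.7, 57.9 and 61.6 with the blockade, where replicate 1 lay closer to the controls than to the other 3. The groups of these genes did not overlap, with log2 fold changes of -0.74 ± 0.18 for Fen1, -0.74 ± 0.19 for Cdt1 and -0.93 ± 0.25 (SE) for Mcm10. Their adjusted p-values were 0.0657, 0.0657 and 0.0702 (limma). With Pcna, Dnmt1, Orc2, Orc6, Prim1 and Rrm2, 9 members had every blockade tumor below every control, against 4.98% of all genes.

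Rrm2 read 285, 343, 365 and 419.6 in controls and 228, 151, 282 and 178 with the blockade, where the highest treated tumor lay just under the lowest control (-0.78 ± 0.21, SE). Mcm2 read 311, 358, 474 and 469 against 299.5, 233, 313 and 218, and Ccne1 read 92.0, 157, 144 and 112 against 103, 53.8, 63.3 and 41.8, each with 1 treated tumor inside the control range (-0.59 ± 0.19 and -0.98 ± 0.30). Cdc6 read 53.4, 88.0, 86.9 and 128 in controls and 54.9, 38.9, 99.5 and 46.2 with the blockade, and overlapped widely (-0.59 ± 0.35).

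Within the machinery, all 7 members of the MCM group were lower at an unadjusted p under 0.05, with log2 fold changes from -0.93 for Mcm10 to -0.54 for Mcm7. Without IL-38 KO + IgG replicate 4, 6 of the 7 were at that level, the exception being Mcm6 (-0.51, unadjusted p = 0.0802, limma). Nucleotide supply genes were lower in 3 of 3, all at that level with all libraries. Without IL-38 KO + IgG replicate 4, Rrm2 stayed at that level (unadjusted p = 0.0114, limma). Rrm1 and Tyms did not (unadjusted p = 0.123 and 0.0965, limma). With all libraries, licensing genes were lower in 6 of 6, with a median of -0.66 and 4 at that level. Cdc45 with the GINS subunits had a median of -0.58, nucleotide supply one of -0.49 (range -0.78 to -0.40), chromatin and methylation maintenance one of -0.52 and S phase entry one of -0.45, with all their members lower, as were both members of Okazaki fragment joining (median -0.45). The polymerase and primase genes were lower in 6 of 6 by a median of -0.28. The clamp loader differed from its clamp in these values: Rfc1, Rfc2 and Rfc3 had log2 fold changes of 0.02, 0.10 and 0.21 and were the 3 members with a higher mean, while Rfc4 and Rfc5 stood at -0.50 and -0.17, none at an unadjusted p under 0.05, beside -1.21 for Pcna.

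The libraries that stood apart were not uniform in their replication genes. IL-38 KO + IgG replicate 4, which carries the mark without the blockade, had the highest mean member level of its table (7.95, against 7.51 to 7.86 in the other IL-38 KO + IgG tumors and 7.01 to 7.51 with the blockade). For 34 of the 43 members it lay above every anti-γδTCR tumor, against 21.3% of all genes. These values rest on 1 tumor, and whether the mark goes with the level of these genes was not tested. Of the treated tumors, replicates 2 and 4 had 2 members each above the table's median, and replicates 1 and 3 had 19 and 20. IL-38 KO + IgG replicate 1, with 14 members above the median, overlapped with the latter pair.

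**Figure D5:**
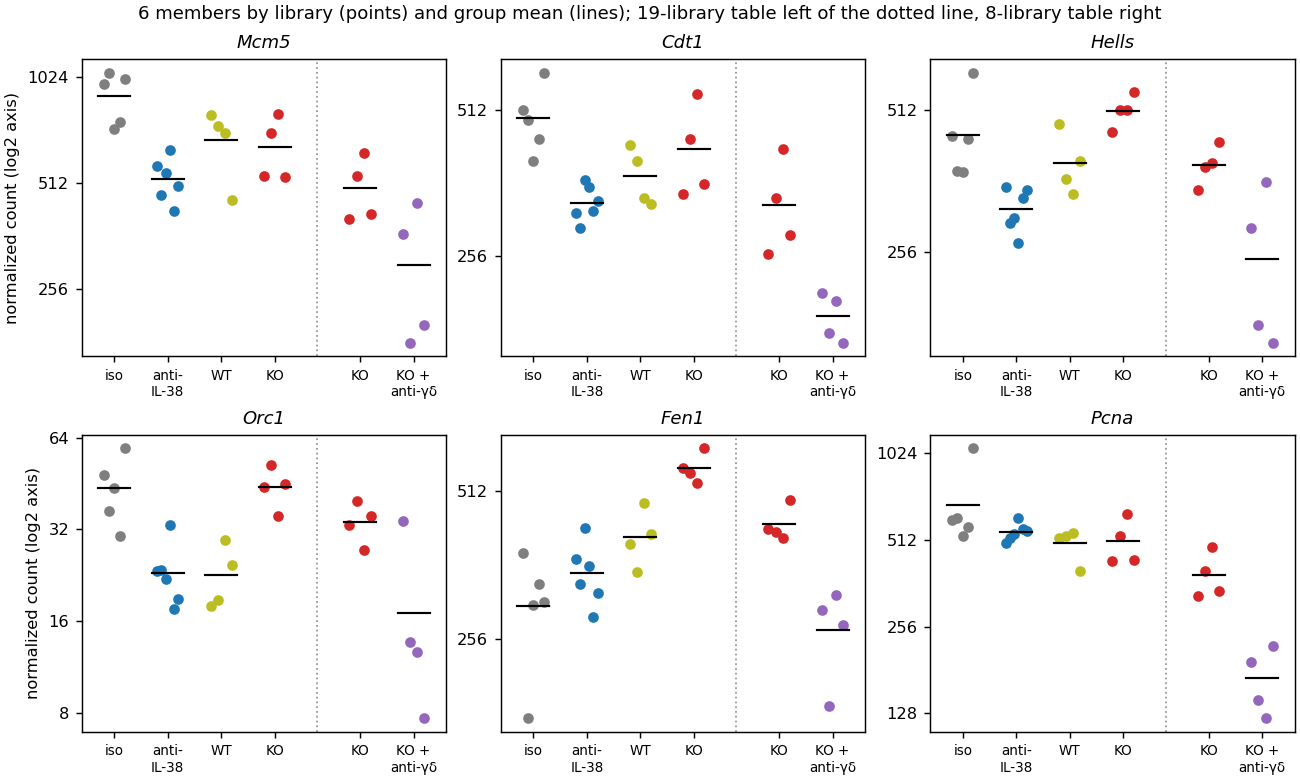
Normalised counts (log2 axis) of Mcm5, Cdt1, Hells, Orc1, Fen1 and Pcna in each library (points) with the group mean (lines), for isotype control (iso), anti-IL-38, WT + IgG (WT) and IL-38 KO + IgG (KO) of the 19-library table left of the dotted line, and for IL-38 KO + IgG and IL-38 KO + anti-γδTCR of the 8-library table right of it. Mcm5, Cdt1 and Hells separate the antibody groups without overlap, Orc1 and Fen1 separate the genotypes, and Pcna, Cdt1 and Fen1 separate the blockade groups.

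A lower mean with the antibody and with the γδ TCR blockade, which share no library, was found for 36 of the 43 members, against 27.7% of the 15355 genes tested in both. Isotype control replicate 5 carried part of this count, since without it 34 members rather than 39 were lower with the antibody. A wider list of 66 other replication genes (origin firing, fork and single-strand binding, further polymerase subunits, nucleotide supply, histone supply and S phase regulation) was examined in the same comparisons. With the antibody 52 of these 66 were lower (median -0.19, 15 lower and 1 higher at an unadjusted p under 0.05), in the knockout 22 were lower (median 0.11), and with the blockade 55 were lower (median -0.31, 20 lower and 1 higher). None of the 66 passed the adjusted threshold in these comparisons by limma on all libraries. In the knockout the 2 with the smallest p were Samhd1 (-0.41 ± 0.14), a nucleotide hydrolase, and Timeless (0.52 ± 0.18), a fork protector (adjusted p = 0.315 and 0.320, limma). With the blockade the smallest p was that of E2f8, a repressor of the E2F program that is itself expressed in S phase (-1.11 ± 0.23, adjusted p = 0.0657, limma). Without IL-38 KO + IgG replicate 4, 6 of the 66 passed with the blockade, 3 lower and 3 higher. That fit called 2357 of 16480 genes, 800 lower (4.85%) and 1557 higher. The share called among the 66 was thus not above that of all genes in either direction.

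The 20 genes of mitosis, the step after S phase, were taken beside the replication genes. All 20 were lower with the antibody (median -0.45, 10 at an unadjusted p under 0.05), 18 of 20 were higher in the knockout (median 0.18) and all 20 were lower with the blockade (median -0.70, 18 at that level). The passenger complex subunits Cdca8 (-0.62 ± 0.14) and Birc5 (-0.63 ± 0.17) had the smallest p with the antibody, and the kinase Plk1 (-0.87 ± 0.17) with the blockade, with adjusted p-values of 0.326, 0.376 and 0.0657 (limma). Without IL-38 KO + IgG replicate 4, 5 of the 20, Bub1, Cenpe, Kif11, Kif20a and Plk1, passed the adjusted threshold with the blockade, all lower, against 4.85% of all genes called lower. As said for the members, the blockade and the mark of the libraries that stood apart cannot be told apart in that fit.

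Markers of cell types also differed between the groups, and their part in the replication genes was not tested. Of 10 luminal epithelial markers, all 10 were higher with the antibody (median 0.70) and with the blockade (median 0.48), and 4 were higher in the knockout (median -0.27). Their summed normalised counts ran from 20907 to 41213 in isotype control, 27724 to 60846 in anti-IL-38, 26782 to 29921 in IL-38 KO + IgG and 33819 to 39464 in IL-38 KO + anti-γδTCR, the last 2 in the 8-library table. For the genotypes, in the 19-library table, the luminal sums were 27444 to 40372 (median 32850) in WT + IgG and 34671 to 39856 (median 37508) in IL-38 KO + IgG. The summed counts were thus not lower in the knockout. The sums of 7 macrophage markers were 29044 to 40018 in isotype control and 24229 to 33244 in anti-IL-38, and 8122 to 19404 in IL-38 KO + IgG and 7432 to 10299 in IL-38 KO + anti-γδTCR (medians of -0.20 and -0.96). In the knockout all 7 were lower (median -0.47), with sums of 22395 to 30372 in WT + IgG and 10372 to 25119 in IL-38 KO + IgG. Skeletal muscle and adipocyte markers differed most in the knockout, where all 6 muscle markers were higher (median 2.07) and all 5 adipocyte markers lower (median -1.11). The muscle sums were 22.9 to 805 in WT + IgG and 135 to 4542 in IL-38 KO + IgG, and with the blockade all 6 were higher (median 1.31, sums of 106 to 3443 and 611 to 7275). Adipocyte sums were 1413 to 2612 in WT + IgG and 415 to 1695 in IL-38 KO + IgG. None of these 28 markers was at 0 in all libraries of a group, and none passed the adjusted threshold in these 3 comparisons.

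The replication genes also varied together within groups. After the group means were removed, the median Pearson's r over the 903 pairs of members across the 19 libraries was 0.375, and 90.8% of pairs were above 0, whereas members and the other genes tested had a median r of -0.0178. All points share their libraries and depth, and without isotype control replicate 5 the median over pairs was 0.178. Cdc6 (r = 0.852 with the mean of the other members), Mcm3 (0.837) and Rrm2 (0.806) followed the rest most closely, and Prim2 (0.0378), Fen1 (0.255) and Orc6 (0.278) least. Fen1 was also the member with the highest log2 fold change under the antibody, and Orc1, with r = 0.380, the member in which the antibody and the knockout differed most.

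In the annotation used for names (GENCODE M21, GRCm38), 11 members overlap another gene on the same strand and 17 on the opposite strand. Among those given by library, Cdt1 overlaps the read-through transcript Gm20388 and Pole overlaps Gm26277 and Gm15791 on the same strand, while Orc1 overlaps Gm12743 and Fen1 overlaps Tmem258 and Gm10143 on the opposite strand. The strand setting of the counting is not given in the sources used here, so reads of these genes and their partners could not be separated with certainty.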

How the data were processed

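Total RNA of dissociated tumors was sequenced as QuantSeq 3′ libraries, which count transcripts at their 3′ end. For alignment and counting the methods name the QuantSeq pipeline of BlueBee Genomics and the submitters' processing notes name STAR, HTSeq, DESeq2 and GRCm39, without versions. The deposited signal values are normalized counts, for which the authors divided the reads of each library by 1 size factor, once for a table of 19 and once for a table of 8 libraries. Whole reads were recovered in 100% of values within 0.0001% (in WT + IgG replicate 1, where 1 read is worth 0.996, they cannot be told from rounded values). No 2 libraries of a group were duplicates (chi-square per degree of freedom of 15.9 to 125.3).

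The members and lists were chosen with earlier results of these data known. Genes averaging at least 5 normalized counts entered limma 3.58.1 (R 4.3.3, trend, two-sided, Benjamini-Hochberg, threshold 0.05) as log2(normalized count + 1), a scale that understates changes of low genes, with only the libraries compared and, for antibody against knockout, an interaction term over 19 libraries. Each library is labelled as a separate tumor sample, and p-values measure the spread between these samples. The data label of IL-38 KO + anti-γδTCR replicate 3, the library with the fewest reads (6273049), alone carries the mark rep. Its meaning is not given in the sources used here. Exact permutation tests were two-sided, and their p-values are printed unadjusted. With Benjamini-Hochberg adjustment over the 26 exact tests made, the p was 0.0141 for Mcm5, Cdt1, Hells and Pole with the antibody. It was 0.0619 for Orc1 and Fen1 in the knockout, and for Pcna, Fen1, Cdt1, Mcm10 and Rrm2 with the blockade. This adjustment does not cover the picking of members by their p. edgeR 4.0.16 and DESeq2 1.42.0 on recovered reads, other scalings, filters and pseudocounts, a replicate block and the removal of each library were alternatives. The fits were tested on simulated data. Values by library are given for Mcm2, Cdc6, Pcna, Rrm2, Ccne1 and, per comparison, the 4 members with the smallest p, and at most 2 genes per comparison come from the other replication and mitosis lists, while further genes were named after their values were seen. Limits for 0 reads (3 counts) cover counting error only.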

Additional observations from a re-analysis of the deposited data

Results flagged for a closer look

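Tests for an outlying library were made in 70 sets of 4 to 6 libraries, of which chance flags about 1 in 20, and 7 sets were flagged. They are given as values, and their cause was not tested. Isotype control replicate 5 was high in the mean member level (8.86 on the log2 scale), in Cdc6 (323, others 156 to 171) and in Pcna (1066, others 527 to 611). WT + IgG replicate 4 was low in Mcm2 (285, others 459 to 503) and in Pcna (398, others 521 to 542). Rrm2 was low in anti-IL-38 replicate 5 (257, others 411 to 523), and Mcm10 was high in IL-38 KO + anti-γδTCR replicate 1 (111, others 57.9 to 61.6). No member differed between the antibody and the knockout effect at an adjusted p under 0.05 (limma interaction term).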

How the results depend on the processing

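Over every alternative the median of the members kept its sign in each comparison. When each library was left out in turn, it ran from -0.43 to -0.21 for the antibody, from 0.04 to 0.19 for the knockout, from -0.67 to -0.43 for the blockade, from -0.19 to -0.07 for IL-38 inhibited by either means, and from -0.62 to -0.34 for antibody minus knockout. The number of all genes called ran from 0 to 6 (6 without isotype control replicate 3), from 0 to 7, from 0 to 2357, from 0 to 23 (23 without isotype control replicate 3) and from 0 to 2 in the same order, and that of members called by the blockade from 0 to 4, where 2357 and 4 are the counts without IL-38 KO + IgG replicate 4. DESeq2 called 75 genes and 2 members for the antibody (59 genes higher), 304 genes for the knockout, 1051 genes and 8 members for the blockade and 70 genes for IL-38 inhibited. edgeR called 0 genes for the knockout, against 1 by limma, and 1 for IL-38 inhibited, as did the experiment as a term. Chosen after seeing the data, the fits without IL-38 KO + IgG replicate 4 called for the knockout 10 (edgeR), 485 (DESeq2), 7 (TMM) and 16 genes (quantile). For IL-38 inhibited, DESeq2 called 83 genes. For the blockade they called, in the same order, 2379, 2875, 2388 and 2320 of 16480 genes, with 6, 9, 7 and 6 of 43 members. The share of members called in either direction was thus not above that of all genes for edgeR and quantile scaling. It was above that of all genes for DESeq2 and TMM. The members called were all lower, and the genes called lower numbered 921, 1019, 932 and 1022. Counted for lower genes only, the share of members was the larger in each fit.

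Same-numbered libraries deviated from their group means with correlations of -0.11 to 0.07 (antibody), 0.02 to 0.07 (knockout) and -0.17 to 0.02 (blockade), so they share only a number. The replicate block called 1 gene for the antibody, 0 for the knockout, 0 for the blockade and 0 for antibody minus knockout, and 0 members in each. The sign of Ccne1 with the antibody depended on 1 library (-0.19 to 0.075 over those left out, 0.075 without isotype control replicate 3, 0.058 without replicate 5 and 0.055 without anti-IL-38 replicate 5). In the knockout the same held for Cdc6 (-0.048 to 0.35, with -0.048 without IL-38 KO + IgG replicate 4, and without it -0.025 by edgeR, -0.020 by DESeq2, -0.032 with TMM and -0.10 with quantile scaling) and for Pcna (-0.091 to 0.086, with -0.085 without WT + IgG replicate 4, -0.0073 without IL-38 KO + IgG replicate 2 and -0.091 without its replicate 3). The causes were not tested. Depth limits Orc1 most, with 7 reads in its lowest library.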

Other observations

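Members with and without the E2F words in their promoter windows were set side by side, as values with no test. The median log2 fold change of the 15 members with such a word and of the 19 without was -0.39 and -0.28 with the antibody, 0.05 and 0.20 in the knockout, and -0.57 and -0.50 with the γδ TCR blockade. Of the cell types not described above, all 7 T cell markers were higher with the antibody (median 0.87, summed normalised counts of 19.1 to 175 in isotype control and 55.7 to 176 in anti-IL-38) and with the blockade (median 0.52), and 6 of 7 were lower in the knockout (median -0.82), none past the adjusted threshold (limma). All 6 fibroblast markers were higher with the antibody (median 0.55, sums of 15225 to 50157 in isotype control and 21094 to 57898 in anti-IL-38), again none past it.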
